A study of Mus musculus with 6 samples.

Results

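The genes described here are 10 sialyltransferases of the ST3GAL and ST6GALNAC families, St3gal1 to St3gal6 and St6galnac3 to St6galnac6, out of 22071 genes on the array, of which 16524 were tested. They were chosen by gene name, as probe sets whose only symbol in the platform's probe annotation is one of the 10. The list was drawn up with earlier results of these same arrays known, and which measured values guided it is not recorded, so the differences and adjusted p values of its members are a description and give no independent support. Of 132 probe sets with one of these names, 126 passed the filter on low values. All 10 genes kept at least 3 probe sets and received a gene value. St6galnac1 and St6galnac2 complete the ST6GALNAC family on the array but are not on the list. Their gene values differed by -0.17 and -0.11 on the log2 scale, and neither passed (limma, adjusted p = 0.539 and 0.662).

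Sialyltransferases are Golgi enzymes that take sialic acid from its CMP-activated form and attach it to the ends of sugar chains on proteins and lipids. ST3GAL enzymes add it to galactose, and ST6GALNAC enzymes add it to N-acetylgalactosamine. Their products include the sialylated mucin-type O-glycans of cell surface proteins and the gangliosides, the sialylated glycolipids that are abundant in neuronal membranes.

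The samples were primary cortical cultures of C57BL/6 mouse embryos at embryonic day 15, plated without meninges and treated with AraC, which acts against dividing cells. On day 5 all cultures were exposed for 4 hours to lentivirus that expressed a control short hairpin RNA (shRNA) or one against Cugbp1. This gene, now named Celf1, encodes an RNA-binding protein of splicing, mRNA decay and translation. RNA was taken on day 11, 6 days after infection, and 100 ng per array was labelled. There were 3 arrays per group, and nothing in the labels says whether they came from separate cultures, so p values measure the spread between these arrays. For 4 of the 6 arrays, those numbered 2 and 3 in either group, the treatment label mentions Tdp-43 in place of Cugbp1, and motor neurons are mentioned in the design text. Effects of the hairpin other than lowering Celf1 cannot be told apart from those of lowering it.

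Values are log2 RMA signals, in which 1 unit is a doubling. Array medians lay between 5.74 and 5.78, and arrays correlated at 0.953 to 0.981 across probe sets. Celf1 had gene values of 10.85, 10.79 and 10.75 in control arrays 1, 2 and 3 and of 9.59, 9.40 and 9.33 in knockdown arrays. It fell by 1.36 (limma, adjusted p = 0.0118). Tardbp, which encodes TDP-43, differed by -0.035 (limma, adjusted p = 0.961).

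St3gal1 and St6galnac5 fell to a similar share of their control levels, and the other 8 members did not pass the main test. St3gal1 was left at 49.1% of control, with a 95% confidence interval of 36.9% to 65.3%. St6galnac5 was left at 51.2%, with an interval of 43.4% to 60.5%. Of the 10 members, 2 fell and 0 rose at an adjusted p under 0.05 in limma, while 3.99% of all genes tested were called in either direction. The groups did not overlap, with every knockdown array lower, for 5 members, and with every knockdown array higher for 1, against 14.4% and 10.8% of all genes. A lower mean was seen for 7 of 10 members, or 70%, and for 53.5% of all genes. The median difference of the members was -0.16, and that of all genes was -0.015. In whole cultures, fewer cells of a type and less RNA per cell cannot be told apart.

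**Figure D1:**
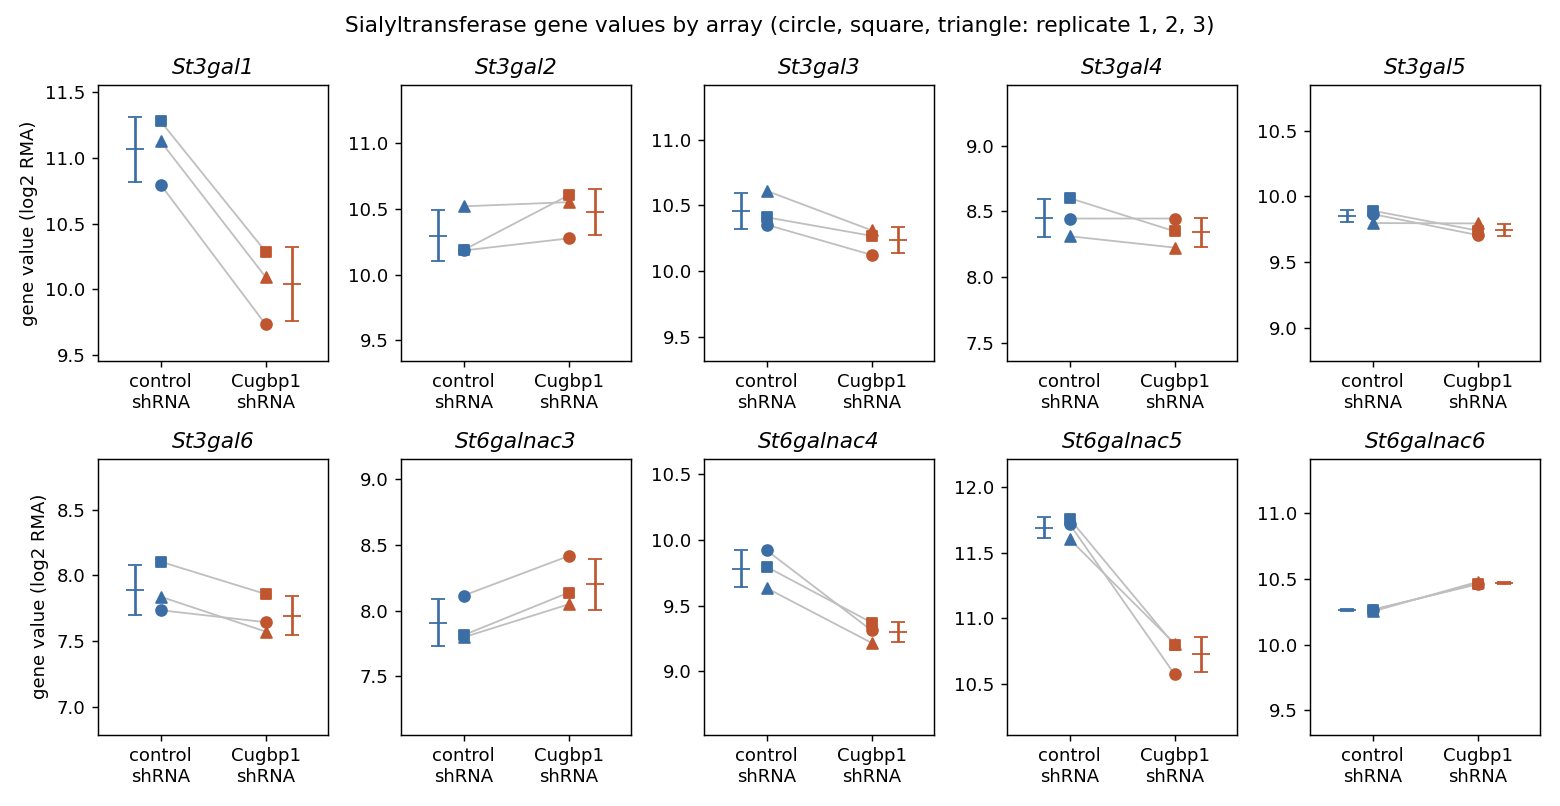
Gene values (log2 RMA, vertical axis) of the 10 sialyltransferases on each array, with control shRNA in blue and Cugbp1 shRNA in orange. Grey lines join arrays of one replicate number, bars show the mean and SD of 3 arrays, and every panel spans the same number of log2 units. St3gal1 and St6galnac5 show the steepest falls, with differences of -1.03 and -0.96.

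The same 10 genes were also fitted with the replicate number as a block. Arrays sharing a number departed from their group averages in similar ways, with correlations of 0.76, 0.50 and 0.71 for numbers 1, 2 and 3. Such correlations were not computed for arrays with different numbers, so a pairing by number is not shown. Calls made with the block assume that pairing. With the block 4 members fell and 2 rose, and 23.3% of all genes were called. The members called were St3gal1, St6galnac5, St6galnac4 and St3gal3, which fell, and St6galnac3 and St6galnac6, which rose. Blocked values are given below beside the members whose call they change.

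**Figure D2:**
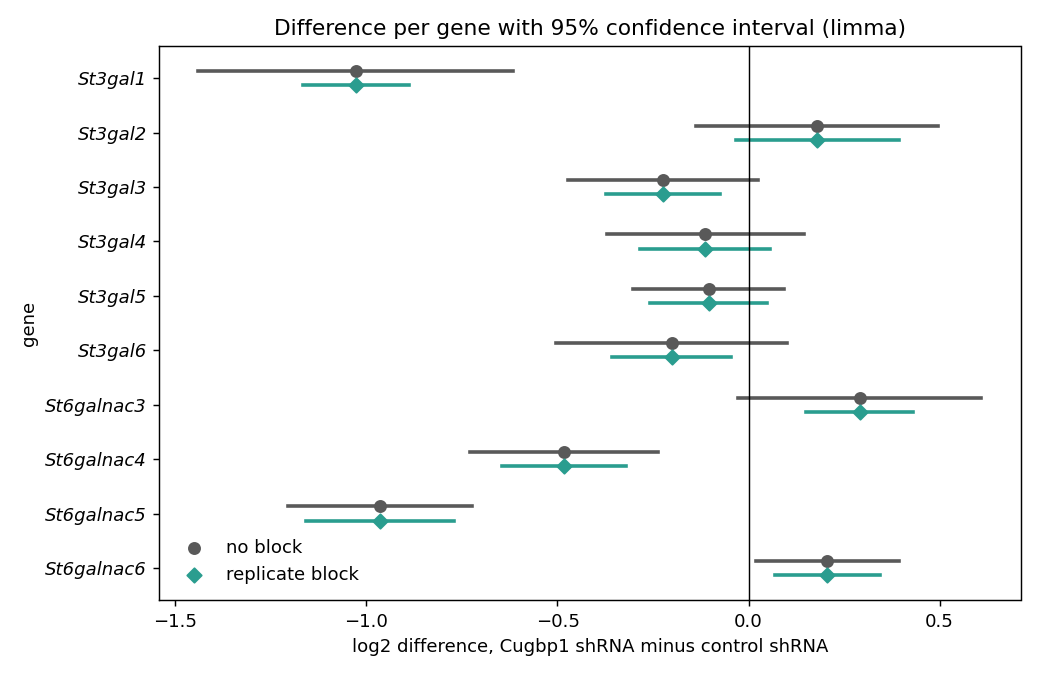
Log2 difference between Cugbp1 shRNA and control shRNA (horizontal axis) for each gene, with 95% confidence intervals from limma without a block (grey circles) and with the replicate block (green diamonds). The intervals of St3gal1, St6galnac4 and St6galnac5 lie below 0 in both fits. That of St6galnac6 lies above 0 in both, from 0.020 to 0.39 without the block.

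Among enzymes that sialylate galactose on O-glycans, St3gal1 fell and St3gal2 did not pass. St3gal1 acts on the galactose of the galactose-N-acetylgalactosamine disaccharide, the common core of mucin-type O-glycans. Its gene value was 10.80, 11.28 and 11.13 in control arrays 1, 2 and 3 and 9.73, 10.29 and 10.10 in the knockdown arrays. All knockdown arrays lay below all control arrays, and array 1 was the lowest of its group on both sides. The difference was -1.06, -0.99 and -1.03 within replicate numbers 1, 2 and 3. Means were 11.07 ± 0.25 and 10.04 ± 0.28 (SD, n = 3), and St3gal1 fell by 1.03 (SE 0.18, limma, adjusted p = 0.0298). St3gal1 passed without control array 1 and did not pass without any one of the other 5 arrays, where the adjusted p was between 0.0955 and 0.189. In those 5 settings at most 1 of all 16524 genes was called. The target Celf1 did not pass in them either (limma, adjusted p between 0.0530 and 0.139). St3gal1 also did not pass when genes with a single kept probe set were tested too (limma, adjusted p = 0.0552).

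St3gal2 acts on the same disaccharide and on the terminal galactose of gangliosides such as GM1. It had gene values of 10.19, 10.19 and 10.52 in control arrays and 10.28, 10.60 and 10.55 in knockdown arrays. The groups overlapped, since control array 3 lay above knockdown array 1. The difference was 0.18, with a 95% confidence interval of -0.14 to 0.50 (limma, adjusted p = 0.579), which does not reach the size of the St3gal1 difference in either direction.

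St3gal5 encodes GM3 synthase, which makes the ganglioside from which most brain gangliosides are built. Its gene values were 9.86, 9.89 and 9.80 in control arrays and 9.71, 9.74 and 9.79 in knockdown arrays. The groups did not overlap but nearly met, since the arrays numbered 3 differed by -0.0031. The difference was -0.10 with an interval of -0.30 to 0.093 (limma, adjusted p = 0.610).

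St3gal3, St3gal4 and St3gal6 act mainly on the galactose ends of N-glycans, though St3gal3 also contributes to gangliosides. All had lower means in knockdown arrays, and none passed without the block. St3gal3 was at 10.35, 10.41 and 10.61 in control arrays and 10.12, 10.27 and 10.31 in knockdown arrays, without overlap. Its difference of -0.22 (limma, adjusted p = 0.325) passed with the replicate block (adjusted p = 0.0468). St3gal4 was at 8.45, 8.60 and 8.31 in control arrays and at 8.45, 8.35 and 8.22 in knockdown arrays, and these overlapped. Its difference was -0.11, with an interval of -0.37 to 0.15 (limma, adjusted p = 0.703). St3gal6 was at 7.73, 8.10 and 7.84 in control arrays and at 7.64, 7.86 and 7.57 in knockdown arrays, which also overlapped. It differed by -0.20, with an interval of -0.50 to 0.10 (limma, adjusted p = 0.493).

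Within the ST6GALNAC family, St6galnac5 fell, St6galnac4 had lower values, and St6galnac3 and St6galnac6 had higher values. St6galnac5 is a brain enzyme that adds sialic acid to N-acetylgalactosamine inside gangliosides and so makes GD1alpha. Its gene value was 11.71, 11.76 and 11.60 in control arrays and 10.57, 10.80 and 10.81 in knockdown arrays. The gap between the groups was wide on every array, with array 1 the lowest of the knockdown group. Within replicate numbers 1, 2 and 3 it differed by -1.14, -0.96 and -0.79. Means were 11.69 ± 0.08 and 10.73 ± 0.13 (SD, n = 3), and it fell by 0.96 (SE 0.10, limma, adjusted p = 0.0153), the smallest p among the members. As with St3gal1, it passed without control array 1 and not without any one of the other 5 arrays (adjusted p between 0.0593 and 0.139). Celf1 did not pass in those 5 settings either.

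St6galnac4 adds sialic acid to the N-acetylgalactosamine of O-glycans that already carry one on galactose. It stood at 9.92, 9.79 and 9.63 in control arrays and at 9.31, 9.37 and 9.22 in knockdown arrays. The groups did not overlap, and the difference within replicate numbers was -0.61, -0.42 and -0.42. The mean difference of -0.48, with a standard error of 0.11, lay just outside the threshold (limma, adjusted p = 0.0522) and passed with the replicate block (adjusted p = 0.00610). It passed in 8 of 17 alternative settings, the block among them, and 1 of these loosened the threshold to 0.10.

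St6galnac3 can act on sialylated O-glycans and on gangliosides. It had gene values of 8.12, 7.81 and 7.80 in control arrays and 8.42, 8.14 and 8.05 in knockdown arrays. Array 1 was the highest of both groups, so the groups overlapped, although each knockdown array lay 0.25 to 0.32 above its same-numbered control. The difference of 0.29 did not pass (limma, adjusted p = 0.315) and passed with the replicate block (adjusted p = 0.0171).

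St6galnac6 makes ganglioside and other disialyl structures. It was at 10.26, 10.27 and 10.25 in control arrays and 10.47, 10.46 and 10.48 in knockdown arrays, the tightest groups of the 10 members, with an SD of 0.0072 and 0.0097. All knockdown arrays were higher. The difference of 0.21 did not pass (limma, adjusted p = 0.217) and passed with the replicate block (adjusted p = 0.0452).

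The ST6GALNAC genes lie in neighbouring pairs on the RefSeq assembly GRCm38.p6. No other protein-coding gene lies between St6galnac4 and St6galnac6 on chromosome 2, or between St6galnac5 and St6galnac3 on chromosome 3. In each pair, one gene had a lower and the other a higher mean in knockdown arrays. The differences were -0.48 and 0.21 in the first pair and -0.96 and 0.29 in the second, and only that of St6galnac5 passed without the block. The excluded St6galnac1 and St6galnac2 are also neighbours, on chromosome 11, but both had lower means, with differences of -0.17 and -0.11.

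The RefSeq promoter table gave a window for 7 of the 10 members, with none for St3gal1, St3gal2 or St6galnac5. The 250 bases before the start of St6galnac4 and St3gal3 are shown because these are the 2 members with a window that were lower in all knockdown arrays and passed with the block. They were taken from build GRCm38.p6, at chr2:32586828-32587077 on the plus strand and chr4:118134947-118135196 on the minus strand, and are written 5′ to 3′ on the strand of the gene. Capitals mark the GC box, GGGCGG or its reverse complement CCGCCC.

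St6galnac4: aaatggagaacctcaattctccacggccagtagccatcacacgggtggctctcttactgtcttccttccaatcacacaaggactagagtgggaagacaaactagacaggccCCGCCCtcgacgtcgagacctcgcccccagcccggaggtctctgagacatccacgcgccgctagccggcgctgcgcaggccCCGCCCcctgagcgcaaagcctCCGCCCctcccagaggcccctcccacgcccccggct

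St3gal3: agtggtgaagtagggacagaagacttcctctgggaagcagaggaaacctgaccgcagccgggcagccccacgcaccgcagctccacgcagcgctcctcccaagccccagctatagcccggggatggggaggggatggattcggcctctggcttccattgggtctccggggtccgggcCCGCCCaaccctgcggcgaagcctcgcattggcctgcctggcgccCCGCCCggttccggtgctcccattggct

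The St6galnac4 window holds 3 GC boxes and the St3gal3 window 2, at a GC content of 65.2% and 68.4%. Among the other members with a window, St3gal4 had 3 GC boxes, St3gal5 2, St6galnac3 1 and St6galnac6 0. The 2 windows of St3gal6 had 0 and 4. GC boxes were thus not particular to the 2 genes shown. On either strand the GC box is found in 32.7% of 32851 windows of this length in the table. CCAAT, searched in the same way and present in 33.8% of windows, occurs once in the St6galnac4 window and 3 times in that of St3gal3. TATAAA, present in 12.4%, occurs in neither. These matches describe the letters only.

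At the level of single probe sets, each a group of probes on an exon or part of one, most probe sets of St3gal1 and all of St6galnac5 had lower values. All 7 probe sets of St6galnac5 were lower in every knockdown array than in any control array, with differences from -1.34 to -0.85. Of 19 kept probe sets of St3gal1, 15 showed the same, with differences from -1.65 to -0.69, and 4 overlapped. In St6galnac4, 9 of 10 probe sets were lower without overlap, from -0.70 to -0.36. Among all 126 kept probe sets of the members, 44 were lower and 11 higher without overlap, against 6.57% and 5.44% of all 597778 kept probe sets. Of these 44, 31 belong to St3gal1, St6galnac4 and St6galnac5. No probe set of a member passed after adjustment over all kept probe sets (smallest adjusted p = 0.417, limma, and 0.142 with the replicate block), as none did among all probe sets (0%). At an unadjusted p under 0.05 there were 32 member probe sets, 31 of them lower, against a background of 5.92%. Of these 31, 15 belong to St3gal1, 7 to St6galnac5 and 6 to St6galnac4. These background shares cover all 597778 kept probe sets, of which 244606 belong to genes tested. Shares among those alone were not computed.

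**Figure D3:**
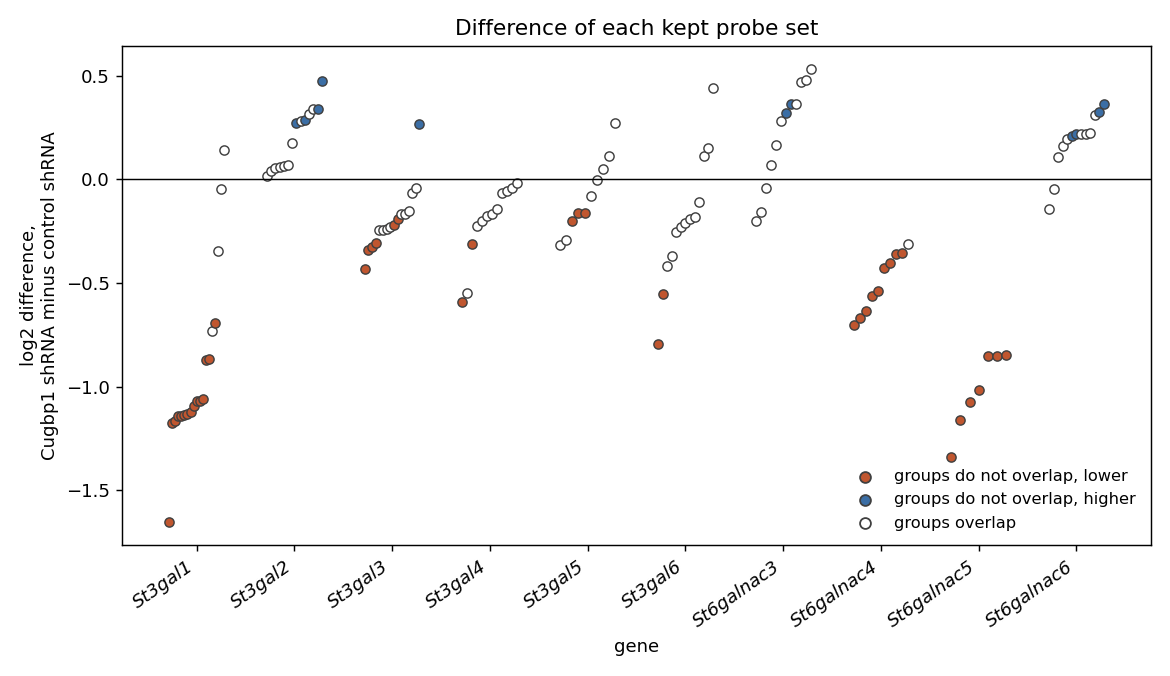
Log2 difference (vertical axis) of each of the 126 kept probe sets, by gene, sorted within a gene. Filled points mark probe sets whose groups do not overlap, orange for lower and blue for higher in knockdown arrays. The 7 points of St6galnac5 are all orange, and those of St3gal2 all lie above 0.

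In the remaining 7 members, a smaller share of the probe sets separated the groups. All 14 probe sets of St3gal2 had a higher mean, by 0.017 to 0.47, and 4 of them were higher without overlap. All 12 probe sets of St3gal4 had a lower mean, by -0.59 to -0.018. Of the St3gal3 probe sets, 15 of 16 had a lower mean, and the exception, probe set 4325730, was higher in every knockdown array. St6galnac6 had 11 of 13 and St6galnac3 9 of 12 probe sets with a higher mean. St3gal5 had 7 of 10 and St3gal6 10 of 13 with a lower mean. In St3gal6, 2 probe sets were lower without overlap, 4639600 by -0.79 and 5486190 by -0.55, and the first lay further from 0 than any probe set of St6galnac4.

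Among the 4 St3gal1 probe sets whose groups overlapped, the differences ran from -0.73 to 0.14. Probe set 5545530 was at 7.02, 6.05 and 6.75 in control arrays and 6.74, 6.83 and 6.67 in knockdown arrays, a difference of 0.14. Probe set 4777341 was at 6.38, 6.22 and 6.54 and at 6.35, 6.09 and 6.57, a difference of -0.046. Probe set 4616665 differed by -0.35. Probe set 4593029 differed by -0.73, from 8.63, 7.36 and 7.52 to 7.70, 6.73 and 6.88. It was lower within each replicate number, and its groups overlapped because array 1 was high in both. Its difference lay within the range of the 15 probe sets without overlap. The control means of these 4 were 6.38 to 8.65, nearer to the filter minimum of 5.73 than those of the other 15, at 10.06 to 12.68. The brightness of a probe set also depends on its sequence, and its part in these differences was not tested.

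Relative to the rest of St3gal1, probe set 5545530 was higher by 1.11 with a standard error of 0.27 and did not pass in diffSplice (adjusted p = 0.0934), nor did 4777341 at 0.92 (adjusted p = 0.363). Probe set 4448931 was lower than the rest by 0.78 (adjusted p = 0.713). It had control values of 10.32, 10.70 and 10.18 and knockdown values of 8.76, 8.74 and 8.73, and its difference of -1.65 was the lowest of any kept member probe set. No member probe set was called in diffSplice, where 0.0822% of 244606 probe sets were. An unadjusted p under 0.05 was reached by 9, against 3.07% of all.

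With the replicate block 7 member probe sets were called relative to their gene, against 2.37% of all. St3gal1 had 4 of them, 5545530, 4777341, 4616665 and 4448931 (diffSplice, adjusted p = 5.65e-09, 4.84e-07, 0.000862 and 1.27e-05). The others were 4325730 of St3gal3 at 0.49 (adjusted p = 0.0273), 5325880 of St3gal5 at 0.39 (adjusted p = 0.0414) and 4776596 of St3gal6 at 0.69 (adjusted p = 0.0470). diffSplice assumes one spread for all probe sets of a gene. A splicing index, the probe set value less the gene value, lets the spread differ from one probe set to the next. It was fitted without the block only, and 0 probe sets were called, among the members or among all genes. Whether the 7 calls made with the block depend on the assumption of one spread was therefore not tested. Exons are not named, since probe set coordinates were not used.

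**Figure D4:**
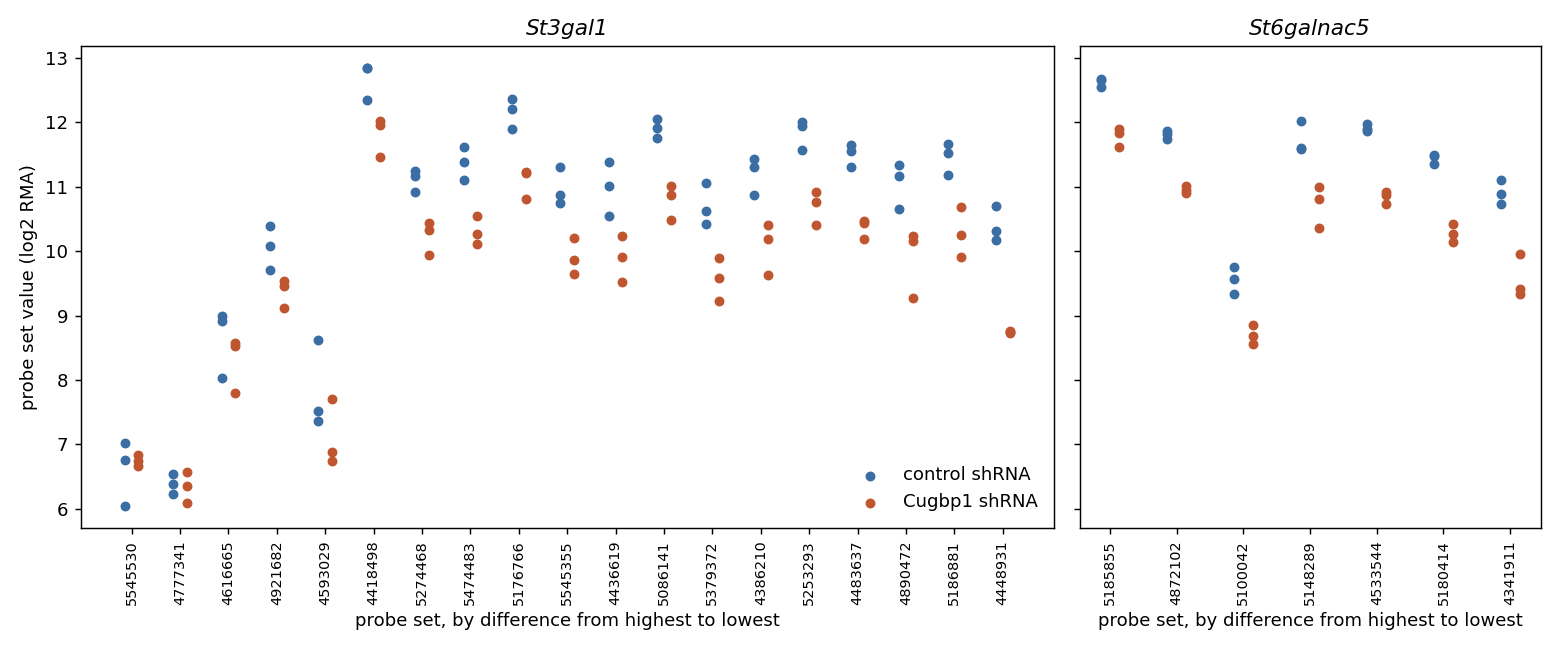
Values (log2 RMA, vertical axis) of the 19 kept probe sets of St3gal1 and the 7 of St6galnac5 on every array, control shRNA in blue and Cugbp1 shRNA in orange, ordered by difference. In St3gal1 the groups separate for 15 probe sets and overlap for 5545530, 4777341, 4616665 and 4593029, while all 7 of St6galnac5 separate.

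Other genes of sialic acid and glycan metabolism were read from lists put together for this comparison. Among the 10 other sialyltransferases, a list that includes St6galnac1 and St6galnac2, 2 fell and 1 rose. St6gal2, which sialylates galactose of N-glycans, fell by 1.12 (limma, adjusted p = 0.0176), and St8sia2, a polysialic acid synthase of developing neurons, fell by 0.79 (adjusted p = 0.0182). St6gal1, which has the same linkage as St6gal2, rose by 1.08 (adjusted p = 0.0121). St6gal1 went from 8.50, 8.38 and 8.55 in control arrays to 9.46, 9.69 and 9.52, and St6gal2 from 11.71, 11.67 and 11.43 to 10.66, 10.51 and 10.28.

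Genes of steps before and after sialylation are read against the 3.99% of all genes called. Of 22 genes that start O-glycans or build their cores, C1galt1 rose by 0.75 (limma, adjusted p = 0.0379), and Galnt14 fell by 0.72 (adjusted p = 0.0268). C1galt1 adds the galactose that St3gal1 and St3gal2 then sialylate, and Galnt14 attaches the first N-acetylgalactosamine to proteins. C1galt1 was at 9.90, 10.13 and 9.61 in control arrays and 10.49, 10.73 and 10.67 in knockdown arrays, without overlap.

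Of 7 sialidases and enzymes that modify sialic acid, 2 fell, and both act on O-acetyl groups of sialic acid. Casd1, which adds them, fell by 0.62 (limma, adjusted p = 0.0298), and Siae, which removes them, fell by 0.62 (adjusted p = 0.0375). The sialidase genes themselves, Neu1 to Neu4, were not among the calls.

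No gene was called in limma among 9 of sialic acid synthesis and transport, 8 of ganglioside and lactosylceramide synthesis, 8 tested of ganglioside breakdown, 14 of N-glycan branching or 8 tested sialic acid receptors. At an unadjusted p under 0.05 these lists had 2, 2, 2, 2 and 0 genes. The synthesis list included Renbp at -0.33 (adjusted p = 0.0960). B3galt4, which makes GM1, differed by -0.57 (adjusted p = 0.118), B4galt6, a lactosylceramide synthase, by 0.45 (adjusted p = 0.235), and Galc, a lysosomal galactosidase, by -0.51 (adjusted p = 0.0872).

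With the replicate block, in which 23.3% of all genes were called, these lists did have calls. In sialic acid synthesis and transport 1 gene fell, Renbp (limma, adjusted p = 0.0178), and 1 rose, Slc17a5, the lysosomal sialic acid exporter (adjusted p = 0.0437). In ganglioside synthesis 2 fell, B3galt4 and St8sia5 (adjusted p = 0.00711 and 0.0240), and 1 rose, B4galt6 (adjusted p = 0.00824). In ganglioside breakdown Galc fell (adjusted p = 0.00876). Among the N-glycan genes 4 fell, Man2a1, Mgat5b, Mgat4b and Mgat3 (adjusted p = 0.00744, 0.0183, 0.0366 and 0.0487). Among the sialic acid receptors 1 fell, Siglech (adjusted p = 0.0302). The counts in the other lists were 3 lower and 2 higher among other sialyltransferases, 4 lower and 1 higher among O-glycan genes, and 2 lower among sialidases and related enzymes.

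**Figure D5:**
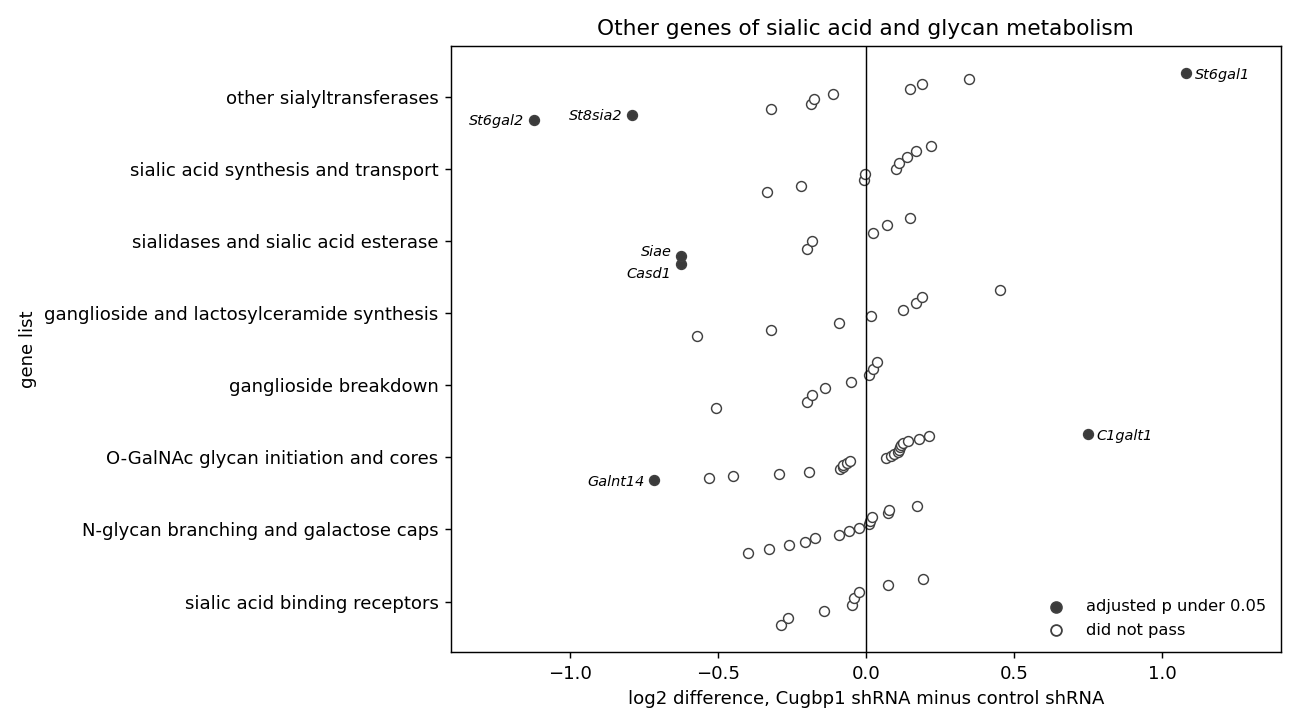
Log2 difference (horizontal axis) of each tested gene in 8 lists around the sialyltransferases, with filled points for an adjusted p under 0.05 in limma. The 7 filled points are named, and 5 of them lie below 0.

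The genes whose values over the 6 arrays were most like those of St6galnac5, by Pearson correlation, were Actn2, Pls3 and Abhd1, at r = 0.999, 0.998 and 0.996. Actn2 encodes an actin-crosslinking alpha-actinin and Pls3 an actin-bundling plastin. Pls3 fell by 0.58 (limma, adjusted p = 0.0216), whereas Actn2 and Abhd1 differed by -0.16 and -0.37 and did not pass (adjusted p = 0.354 and 0.0515). The 6 points share the same 2 groups, so these correlations are a description.

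Markers of the cells in the culture were read on the same arrays, as the mean gene value of each list. The pan-neuronal list, with 11 of 12 markers tested, lay at 11.95 to 12.09 in control arrays and 11.82 to 11.89 in knockdown arrays. Of its markers 9 had a lower and 2 a higher mean, with a median difference of -0.10, and 1, Ina, fell by 0.60 (limma, adjusted p = 0.0202). The glutamatergic list, with 7 of 8 tested, lay at 10.61 to 10.73 and 10.42 to 10.44, and all 7 had a lower mean, though none passed (2 at an unadjusted p under 0.05). With the replicate block 23.3% of all genes were called. Of the 7 glutamatergic markers 3 fell in that fit, Camk2a, Neurod6 and Bcl11b (limma, adjusted p = 0.00498, 0.0261 and 0.0433). The means of both neuronal lists were thus lower in all knockdown arrays, by less than the falls of St3gal1 and St6galnac5. The part of these lists in those falls was not tested. The GABAergic list lay at 10.03 to 10.31 and 10.22 to 10.35, with a lower mean for 5 of its 8 markers. Gad2 rose by 0.77 (adjusted p = 0.0201). With the block Gad1 also rose (adjusted p = 0.00807), and Lhx6, at -0.30, fell (adjusted p = 0.0243).

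Lists of other cell types overlapped between the groups. Astrocyte markers lay at 9.73 to 9.79 in control arrays and 9.52 to 9.80 in knockdown arrays, oligodendrocyte lineage markers at 9.24 to 9.55 and 9.31 to 9.50, and microglia markers at 6.78 to 6.96 and 6.68 to 6.93. None of these 10, 9 and 10 tested markers was called in limma, and 2, 0 and 0 had an unadjusted p under 0.05. Blocked calls of these markers are read against the 23.3% of all genes called with the replicate block. In that fit 2 astrocyte markers fell, Ntsr2 and Aldh1l1 (limma, adjusted p = 0.00263 and 0.0432), and 1 rose, Acsbg1 (adjusted p = 0.0145). The microglia marker C1qa fell (adjusted p = 0.0377), and no oligodendrocyte lineage marker was called. Endothelial and mural markers lay at 6.88 to 7.24 and 6.84 to 7.13, with Pdgfrb called lower at -0.81 (adjusted p = 0.0417). Fibroblast and meninges markers lay at 8.91 to 9.13 and 8.76 to 9.05, with Thbs1 called lower at -0.72 (adjusted p = 0.0419). Progenitor markers lay at 9.62 to 9.80 and 9.63 to 9.80, with Hopx called higher at 0.72 (adjusted p = 0.0277). With the block the progenitor marker Eomes fell too (adjusted p = 0.0244), and of the pan-neuronal markers Dcx did (adjusted p = 0.00466). Log2 RMA values have no zero, so no marker can be read as absent.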

How the data were processed

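Affymetrix mouse exon arrays measured total RNA of 6 samples, 3 per group. The authors deposited log2 RMA values, 1 per exon probe set, which per the labels came from Expression Console. The submitters' processing notes name mm9. The software's version is not given in the sources used here. RMA corrects background, normalizes between arrays and summarises probes.

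Gene symbols came from the platform's probe annotation (316997 of 1195555 probe sets had a single symbol, 6571 several) and were updated through RefSeq GRCm38.p6. Probe sets with a mean over all arrays of at least the median, 5.73, were kept. Tukey median polish over a gene's probe sets, at least 3, gave its value on each array. limma 3.58.1 in R 4.3.3 (lmFit, eBayes, two-sided) compared the groups across 16524 genes and 597778 probe sets, and diffSplice 244606 probe sets, with Benjamini-Hochberg adjustment over all features of each. The scripts were tested on simulated data without the replicate block, with a pass criterion for gene calls only. The simulated noise was independent between probe sets and arrays. Other software was data.table version 1.17.8, pandas 2.3.3, numpy 2.4.6 and, for the plots, matplotlib 3.10.9.

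The 2 arrays without a number were taken as replicate 1. Deviations from group means correlated between same-numbered arrays at 0.76, 0.50 and 0.71, and the replicate block was fitted beside the main model. Correlations between differently numbered arrays were not computed, so these values do not show that the numbers pair the arrays. The members and gene lists were chosen with earlier results of these data known. The rule names all members, Celf1, pathway list genes that passed or had 1 of the 3 smallest p values, up to 2 markers per list, and the 3 genes most like the member of smallest p. Tardbp, St6galnac1, St6galnac2, the sialidases and genes called with the block were added to it. Array number limits the precision.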

Additional observations from a re-analysis of the deposited data

How the results depend on the processing

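No member reversed direction in any of 17 alternatives. The 2 calls among the 10 genes became 6 with the replicate block, 6 with array weights and 1 when genes with a single kept probe set were tested too. With array weights St3gal2 was called higher, at 0.34 (limma, adjusted p = 0.0243), and St3gal3 was not called. St6galnac4 made 3 calls with quantile normalization, no filter or a filter at the 75th percentile. The same 3 were called with trend and robust variances, probe set means or an adjusted p under 0.10. Calls became 0 to 2 without single arrays, 2 remaining without control replicate 1 and 0 without any of the other 5, where all genes gave at most 1 call. St3gal1 ranged from -1.15 to -0.85 and St6galnac5 from -1.05 to -0.86 without single arrays. Of the probe sets, 0 were called in the main fit and 5 with trend and robust variances, which called 188 of all 597778. Relative to their gene, 7 were called with the replicate block (5806 of all), 0 to 1 without single arrays (the 1 without control replicate 1, with 885 of all) and 3 with arrays numbered 2 and 3 alone (566 of all). That last setting was chosen after seeing the data, and St3gal1 and St6galnac5 were called in it too. The cause of these shifts was not tested. Median centring called 539 and quantile normalization 652 of all genes, array weights 4186, a filter at the 75th percentile 1056, trend and robust variances 1096, an adjusted p under 0.10 1328, and genes with at least 1 kept probe set 219, against 659. The replicate block changed no other member's call than those given. With 3 arrays per group, small differences such as that of St3gal5 could not be settled.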
